A study of Mus musculus with 6 samples.

Results

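The circadian clock genes Per1, Per2, Per3, Cry1, Cry2, Clock, Nr1d1, Nr1d2, Dbp and Tef were followed on 6 arrays of RNA from visceral fat of obese mice. They were taken as the rows of the deposited table whose platform annotation gives exactly 1 gene symbol, equal to 1 of these 10 names. All 10 were found among 19938 genes, each with 1 probeset. Both genotypes have floxed alleles of Hmox1, the gene of heme oxygenase-1 (HO-1), on a C57BL/6 J background. Hmox1f/f PdgfraCre mice also have a Cre transgene driven by the promoter of Pdgfra, a gene of adipose precursors (APs), and Hmox1f/f mice, the controls, have no Cre, so an effect of Cre itself and one of losing Hmox1 cannot be told apart. Mice were fed a high-fat diet (HFD) for 8 weeks from 6 weeks of age, and each array held RNA pooled from 2 mice, 3 arrays per genotype (1 to 3 with Cre, 4 to 6 without). The labels call the material both bead-purified APs and visceral white adipose tissue (viWAT). The comparison addresses how Hmox1 deletion in APs alters gene expression in obesity, and the sources used here give no time of day for tissue collection.

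The circadian clock is a feedback loop of transcription that runs in nearly every cell, including those of fat. CLOCK pairs with BMAL1 (gene Arntl) on E-box sequences and switches on the Per and Cry genes, whose proteins return to the nucleus and repress that pair. The same pair drives Nr1d1 and Nr1d2, which encode the heme-binding nuclear receptors REV-ERBα and REV-ERBβ and repress Arntl, and it drives the PAR bZIP factors Dbp and Tef, which act on D-box sequences of output genes. Transcripts of most of these genes rise and fall over the day, so a level read once depends on the hour of sampling.

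The promoters show which of these control sequences lie close to the start of each gene. The 250 bases before the annotated starts of 9 members were available in RefSeq (GRCm38.p6), in 13 windows. Per2 had no window and was not searched. Both strands were searched for the E-box CACGTG, its variant the E'-box (CACGTT or AACGTG) and the D-box, spelled TTATGTAA, TTACATAA or TTACGTAA. Per1, Cry1 and Tef held an E-box, and Per3 held 2 D-boxes, 205 and 158 bases before its start. Tef held an E-box in each of its windows, of which 1 is shown, whereas Per1 held it in 1 window and not in its other. An E'-box lay in the windows of Cry1, Cry2 and Nr1d1. An E-box was present in 6.02%, an E'-box in 3.85% and a D-box in 0.931% of all 32851 windows of the same length. These shares are per window, whereas a member was named if any of its windows held the motif. The 4 genes with an E-box or D-box are shown with that stretch in capitals, and E'-boxes are not marked. They are followed by 1 of the 3 windows of Clock. Clock had the largest difference between genotypes and no E-box, E'-box or D-box. A match is only a stretch of letters, and its absence says only that these letters are not in the window.
Per1, chr11:69098699-69098948, plus strand: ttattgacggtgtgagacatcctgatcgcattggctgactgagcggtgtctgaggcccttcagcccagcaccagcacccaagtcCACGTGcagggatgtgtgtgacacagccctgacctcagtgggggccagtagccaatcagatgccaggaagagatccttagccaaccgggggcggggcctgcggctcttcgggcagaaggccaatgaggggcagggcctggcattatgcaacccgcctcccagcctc
Per3, chr4:151044666-151044915, minus strand: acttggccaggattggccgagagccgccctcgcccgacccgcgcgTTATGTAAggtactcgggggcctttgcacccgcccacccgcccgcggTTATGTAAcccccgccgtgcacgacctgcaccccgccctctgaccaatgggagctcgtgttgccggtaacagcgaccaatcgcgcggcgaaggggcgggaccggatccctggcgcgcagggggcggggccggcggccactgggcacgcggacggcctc
Cry1, chr10:85185055-85185304, minus strand: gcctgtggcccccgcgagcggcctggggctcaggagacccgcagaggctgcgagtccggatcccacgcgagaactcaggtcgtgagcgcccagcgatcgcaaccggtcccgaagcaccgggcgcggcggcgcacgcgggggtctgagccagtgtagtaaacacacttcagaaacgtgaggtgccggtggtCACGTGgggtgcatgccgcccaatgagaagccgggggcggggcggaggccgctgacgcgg
Tef, chr15:81802423-81802672, plus strand: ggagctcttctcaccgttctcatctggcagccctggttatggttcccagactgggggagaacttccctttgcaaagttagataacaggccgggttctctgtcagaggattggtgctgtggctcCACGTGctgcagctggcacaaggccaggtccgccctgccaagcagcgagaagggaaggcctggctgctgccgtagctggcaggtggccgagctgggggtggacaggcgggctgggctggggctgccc
Clock, chr5:76304793-76305042, minus strand: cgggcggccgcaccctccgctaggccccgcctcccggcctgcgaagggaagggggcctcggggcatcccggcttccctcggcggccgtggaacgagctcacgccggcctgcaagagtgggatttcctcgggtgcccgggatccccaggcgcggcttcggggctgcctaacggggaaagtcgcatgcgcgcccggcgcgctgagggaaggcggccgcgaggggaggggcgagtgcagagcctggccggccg

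The deposited values are intensities from robust multi-array average (RMA) and were used as log2, on which 1 unit is a doubling. Intensities of different probesets are not on a common scale, so each gene was compared with itself across arrays. With 3 arrays a genotype, precision is limited. A difference was called at an adjusted p of 0.05 in limma, and 0 of the 10 members and 0 (0%) of the 11024 genes tested passed. All 10 members passed the filter on low values (a log2 intensity above 7 on at least 3 arrays). At an unadjusted p under 0.05, 1 member, Clock, was counted, against 15.8% of all genes tested (3.03% higher and 12.8% lower with Cre). In 1 member, again Clock, the groups did not overlap, against 27.0% of all genes (5.82% higher and 21.2% lower with Cre). A count of 1 gene among 10 is too small to set the members apart from the genes at large. A higher mean with Cre was found in 7 of the 10 members, against 42.6% of all genes, and the median difference of the members was 0.10 against -0.03 for all genes. Without Hmox1f/f PdgfraCre 3 and Hmox1f/f 6, a choice made after the values were seen, 5 of the 10 were higher and the median turned to -0.0081, against -0.06 for all genes.

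Hmox1, the targeted gene, read 11.25, 11.36 and 10.74 with Cre and 11.90, 11.63 and 12.32 without, a difference of -0.83 ± 0.23 (SE, adjusted p = 0.266 by limma). The groups did not overlap, but the difference did not pass. Markers of APs were measured (Pdgfra at 10.05 to 10.36), but so were those of mature adipocytes (Adipoq at 12.74 to 13.10) and macrophages (Adgre1 at 11.08 to 11.92), so RNA of several cell types contributes to the values. The summed intensity of 16 of 16 macrophage markers was 32325 to 45166 with Cre and 50208 to 53069 without. That of 10 of 11 adipocyte markers was 64849 to 69987 against 55479 to 62198, and that of 10 of 10 endothelial markers 9906 to 11403 against 7483 to 9253. For 11 of 12 AP markers the ranges of the sum overlapped (24707 to 26640 and 25708 to 27407). Their mean log2 intensity did not overlap, at 10.40 to 10.43 with Cre and 10.48 to 10.58 without. Of these AP genes 7 had a lower and 4 a higher mean with Cre, and 0 passed. The groups were apart in 3, all lower with Cre (21.2% of all genes). Among them was Pdgfra, at 10.05 to 10.24 with Cre and 10.31 to 10.36 without. Epididymal markers (9 of 10) summed to 11794 on Hmox1f/f PdgfraCre 1 and 2804 on Hmox1f/f 6, against 417 to 893 on the other 4 arrays, and spermatid markers (8 of 8) to 17415 on Hmox1f/f 6, against 696 to 3559 elsewhere. No marker was listed at 0, since the lowest deposited intensity was 8.

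Clock, which encodes the activating partner of BMAL1, showed the largest difference of the 10 members. Its log2 intensity was 10.54, 10.67 and 11.03 on the Hmox1f/f PdgfraCre arrays and 10.41, 10.49 and 10.05 on the Hmox1f/f arrays. All 3 arrays with Cre lay above all 3 controls, by 0.05 at the nearest pair. The means were 10.75 ± 0.25 (SD, n = 3) and 10.32 ± 0.23 (SD, n = 3). The difference of 0.43 ± 0.17 (SE), a 1.35-fold higher signal with Cre, did not pass (95% confidence interval 0.02 to 0.84, unadjusted p = 0.0417, adjusted p = 0.302 by limma). The highest value was on Hmox1f/f PdgfraCre 3 and the lowest on Hmox1f/f 6. The Clock difference was 0.29 ± 0.15 (SE) without the first, 0.30 ± 0.16 without the second and 0.16 ± 0.08 without both, a choice made after the values were seen. In the RefSeq table Clock overlaps a long noncoding RNA gene and a pseudogene, and whether its probeset reads them was not analysed here. On Hmox1f/f PdgfraCre 3 the adipocyte and endothelial marker lists were at their highest and the macrophage list at its lowest. On Hmox1f/f 6 the order was reversed for all 3 lists, and the part of these cells in the Clock values was not tested. In such bulk RNA fewer cells of a type and less RNA per cell cannot be told apart.

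**Figure D1:**
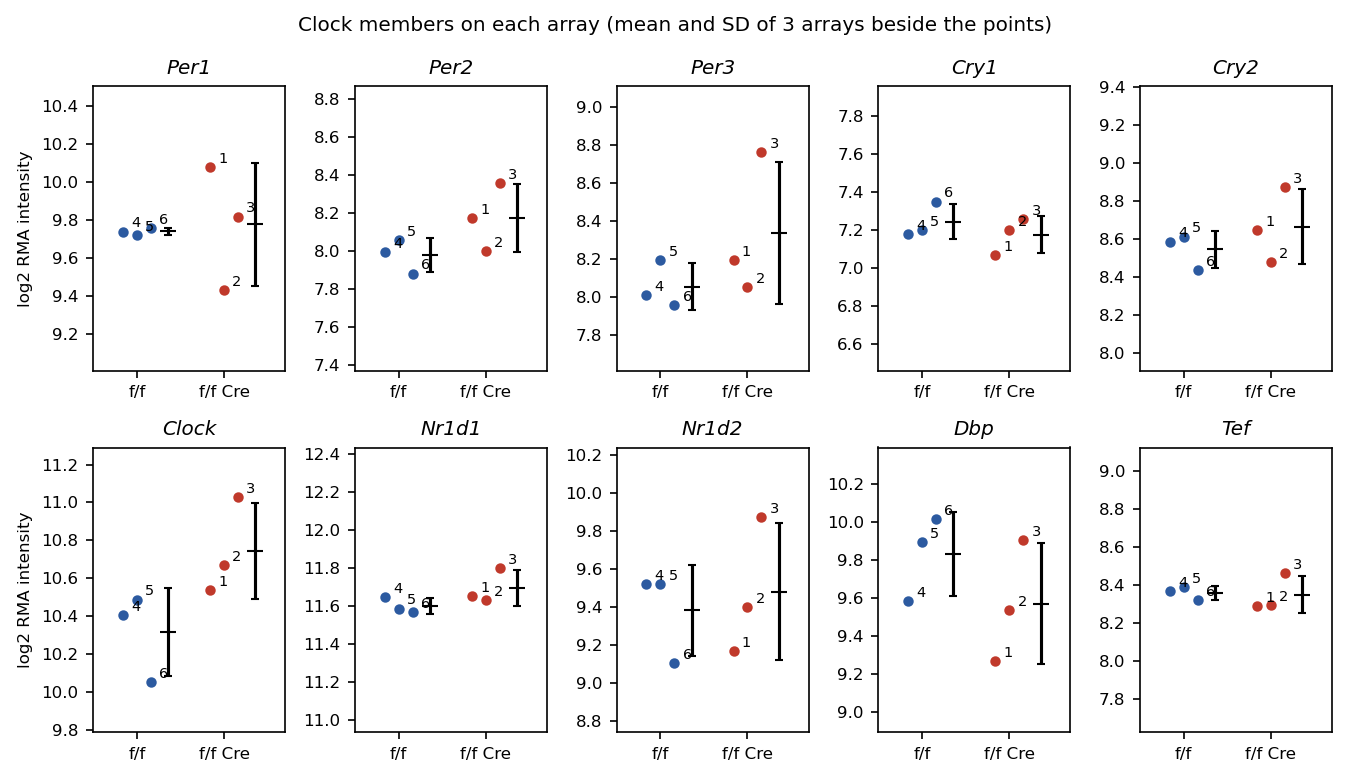
Log2 RMA intensity (vertical axis, the same span in every panel) of the 10 clock genes on each Hmox1f/f (blue, f/f) and Hmox1f/f PdgfraCre (red, f/f Cre) array, numbered by replicate, with black bars for each genotype's mean and SD (n = 3). The groups are apart for Clock (10.54 to 11.03 with Cre, 10.05 to 10.49 without) and overlap for the other 9 genes.

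The Period genes encode the proteins that form the core of the repressing complex. Per1, which is also switched on quickly by glucocorticoids and cAMP signals, read 10.08, 9.43 and 9.82 with Cre and 9.74, 9.72 and 9.76 without. Its controls were nearly identical (SD 0.02, n = 3) while its arrays with Cre spread around them on both sides (SD 0.33, n = 3). The Per1 difference was 0.04 ± 0.16 (SE, adjusted p = 0.918 by limma) and turned to -0.11 without Hmox1f/f PdgfraCre 1, which carried the highest value.

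Per2, whose protein binds CRY partners in that complex, read 8.17, 8.00 and 8.36 with Cre and 7.99, 8.06 and 7.88 without. Only Hmox1f/f PdgfraCre 2 lay within the range of the controls. The Per2 difference was 0.20 ± 0.11 (SE, 95% interval -0.07 to 0.46, adjusted p = 0.409 by limma). Without that array it was 0.29 ± 0.10 (SE, adjusted p = 0.232), and without Hmox1f/f PdgfraCre 3 it was 0.11.

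Per3, a Period gene that the core loop can run without, read 8.19, 8.06 and 8.76 with Cre and 8.01, 8.19 and 7.96 without. A single array, Hmox1f/f PdgfraCre 3, stood above an otherwise shared range. The Per3 difference of 0.28 ± 0.19 (SE, adjusted p = 0.476 by limma) was 0.07 ± 0.10 without it. In the RefSeq table Per3 overlaps the gene Uts2, which lay below the filter of 7 (at most 6.52) and was not tested. Per2 and Cry2 each overlap a long noncoding RNA gene. Whether the probesets of Per2, Per3 and Cry2 read these neighbours was not analysed here. Per3 was the gene with 2 D-boxes in its window. Dbp and Tef, which encode proteins that bind such sequences, had differences of -0.26 and -0.01, neither of which passed the test.

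The cryptochromes encode the strongest repressors of the CLOCK and BMAL1 pair. Cry1 read 7.07, 7.20 and 7.26 with Cre and 7.18, 7.20 and 7.35 without, close to the filter of 7 on every array. Its difference was -0.07 ± 0.09 (SE, 95% interval -0.28 to 0.14, adjusted p = 0.70 by limma). Cry2 read 8.64, 8.48 and 8.87 with Cre and 8.58, 8.61 and 8.43 without. The Cry2 difference was 0.12 ± 0.12 (SE, adjusted p = 0.610), and 0.02 without Hmox1f/f PdgfraCre 3. Both cryptochromes had overlapping groups, and their intervals leave room for a change of up to 0.28 down for Cry1 and 0.41 up for Cry2.

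Nr1d1 and Nr1d2 encode receptors whose ligand, heme, is the substrate of HO-1. Nr1d1 read 11.65, 11.63 and 11.80 with Cre and 11.65, 11.59 and 11.57 without. All 6 arrays thus fell within 0.23, the second-narrowest range of the 10 genes after Tef. The Nr1d1 difference was 0.09 ± 0.08 (SE, 95% interval -0.09 to 0.28, adjusted p = 0.549 by limma). In the RefSeq table Nr1d1 overlaps Thra, the thyroid hormone receptor gene, whose own difference was 0.05 ± 0.10 (SE). Whether the probesets share sequence was not analysed here.

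Nr1d2 varied far more, reading 9.17, 9.40 and 9.87 with Cre and 9.52, 9.52 and 9.11 without. The highest and the lowest arrays were again Hmox1f/f PdgfraCre 3 and Hmox1f/f 6. The Nr1d2 difference was 0.10 ± 0.21 (SE, 95% interval -0.40 to 0.60, adjusted p = 0.822 by limma). It turned to -0.10 without Hmox1f/f PdgfraCre 3 and to -0.04 when Hmox1f/f 6 was left out. These data therefore give no direction for it. They measure transcripts, and the amount of heme bound by either receptor was not measured.

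Dbp, often the output gene with the widest daily swing, read 9.27, 9.54 and 9.91 with Cre and 9.58, 9.90 and 10.02 without. Arrays 1 and 2 with Cre lay below all controls, and array 3 lay among them. The Dbp difference of -0.26 ± 0.19 (SE), a 1.20-fold lower signal with Cre, did not pass (95% interval -0.72 to 0.19, adjusted p = 0.502 by limma). It was -0.43 ± 0.16 (SE, adjusted p = 0.374) without Hmox1f/f PdgfraCre 3, -0.39 without Hmox1f/f 4, -0.11 without Hmox1f/f PdgfraCre 1 and -0.17 when Hmox1f/f 6 was left out. With both arrays highest in epididymal markers left out (Hmox1f/f PdgfraCre 1 and Hmox1f/f 6), it was -0.02. Dbp overlaps Sphk2, a sphingosine kinase gene that differed by -0.22 ± 0.10 (SE, adjusted p = 0.340).

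Tef, a relative of Dbp with the same type of DNA-binding domain, was the steadiest member. It read 8.29, 8.29 and 8.46 with Cre and 8.37, 8.39 and 8.32 without, a range of 0.17 over 6 arrays. Its difference was -0.01 ± 0.08 (SE, 95% interval -0.20 to 0.18, adjusted p = 0.950 by limma). The related Hlf, the remaining PAR bZIP gene, read 7.36, 7.01 and 7.42 with Cre and 6.95, 7.21 and 6.98 without (0.22 ± 0.13, SE).

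**Figure D2:**
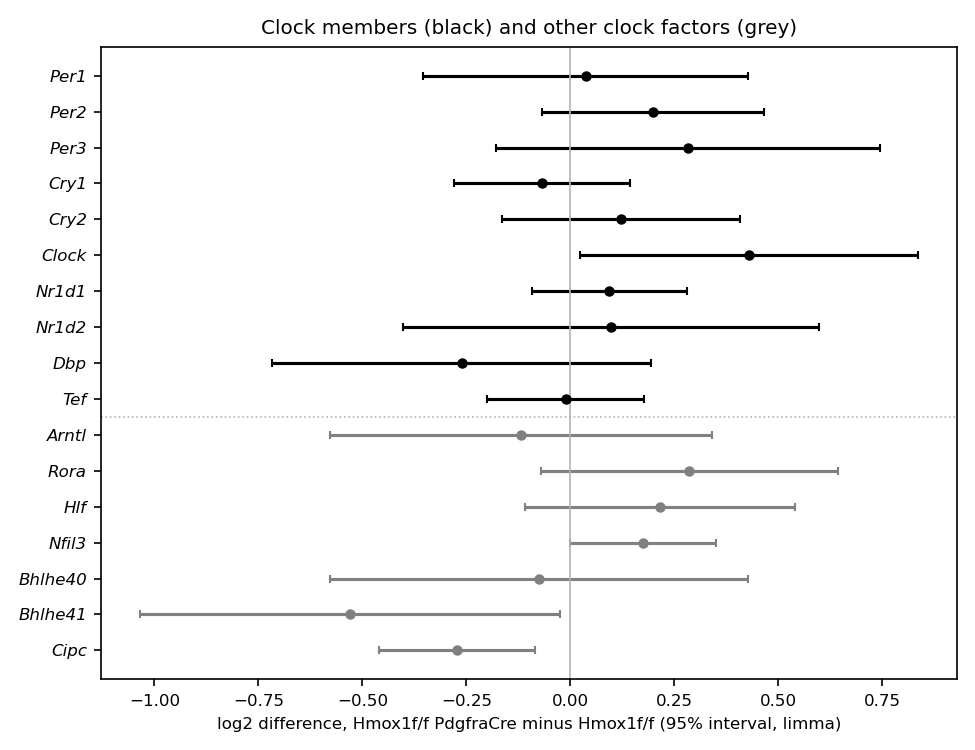
Log2 difference between Hmox1f/f PdgfraCre and Hmox1f/f (horizontal axis, points) with 95% confidence intervals by limma for the 10 clock members (black) and the 7 other clock factors tested (grey). Of the black intervals only that of Clock (0.02 to 0.84) leaves out 0, and it did not pass after adjustment over all genes.

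Most members had their extreme values on the same arrays. Hmox1f/f PdgfraCre 3 was the highest array for 7 of the 10 members, against 31.3% of all genes tested. Hmox1f/f 6 was the lowest for 6 of them, against 26.9%. Over all genes tested both arrays were often extreme in the other direction too. Hmox1f/f PdgfraCre 3 was the lowest for 25.9% of all genes and 0 members. Hmox1f/f 6 was the highest for 24.5% of all genes and 2 members. The mean deviation of the 10 genes from their own means was 0.26 on Hmox1f/f PdgfraCre 3, against -0.04 and -0.08 on the other arrays with Cre and -0.05, 0.02 and -0.11 on Hmox1f/f 4 to 6. Arrays 1 and 2 of Hmox1f/f PdgfraCre thus lay within the range of the controls. The SD within the Cre group was the larger in all 10 members, against 66.1% of all genes, with a median of 0.23 against 0.09 in the controls. Over all genes tested the corresponding medians were 0.13 and 0.09.

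Dbp, Cry1, Per1 and in part Tef departed from this pattern. Tef was at its highest on Hmox1f/f PdgfraCre 3 but at its lowest on Hmox1f/f PdgfraCre 1. The lowest Dbp and Cry1 values and the highest Per1 value were on Hmox1f/f PdgfraCre 1, and the highest Dbp and Cry1 values were on Hmox1f/f 6, where Clock, Per2, Per3, Cry2, Nr1d1 and Nr1d2 were at their lowest. Arntl, the gene of BMAL1, went the other way on the array that stood out. It read 8.06, 8.04 and 7.48 with Cre and 8.20, 7.78 and 7.94 without, so that its lowest value was on Hmox1f/f PdgfraCre 3, where Nr1d1 and Nr1d2, which encode its repressors, and Rora, which encodes an activator of it (9.26), were all at their highest. The Arntl difference between genotypes was -0.12 ± 0.19 (SE, adjusted p = 0.759 by limma).

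**Figure D3:**
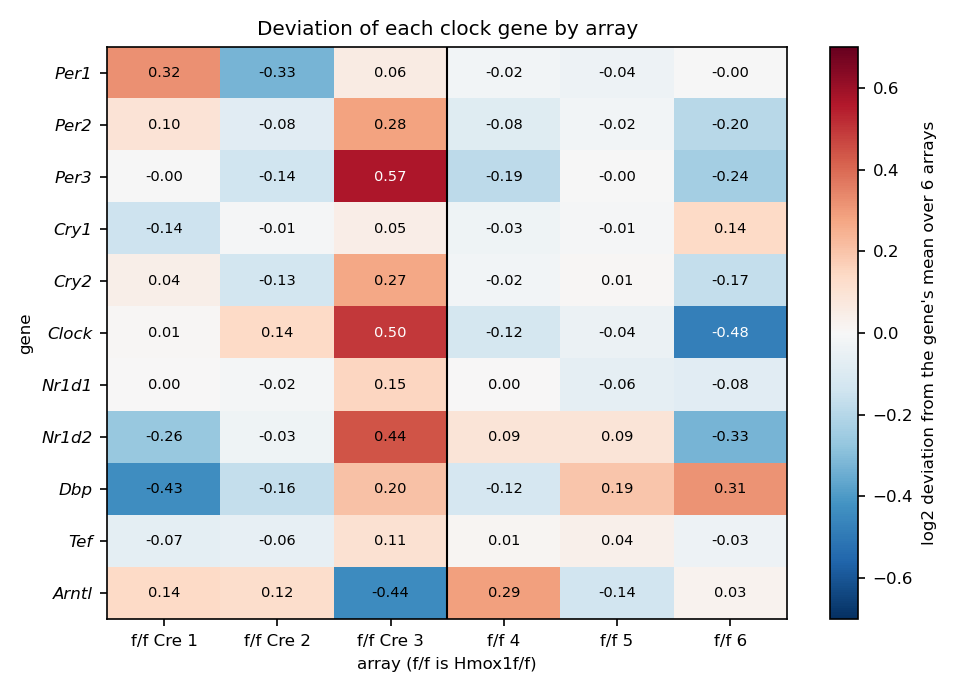
Deviation (log2, colour and printed value) of each clock gene and of Arntl from its own mean over 6 arrays, by array, with the genotypes parted by a black line. Hmox1f/f PdgfraCre 3 holds the highest value of 7 of the 10 members and the lowest of Arntl (-0.44), and Hmox1f/f 6 the lowest value of 6 members, among them Clock (-0.48).

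Clock genes were also read in 2 lists, which were not drawn from the promoter search. Cry1, placed in the REV-ERB list, also held an E-box, and Cry2 is in neither list. The E-box or D-box list held 10 genes (Per1, Per2, Per3, Dbp, Tef, Hlf, Nr1d1, Nr1d2, Ciart and Bhlhe41). Its mean deviation was -0.11, -0.14 and 0.22 with Cre and -0.01, 0.05 and -0.01 without. The 4 measured genes of the REV-ERB list (Arntl, Clock, Nfil3 and Cry1) had 0.03, 0.07 and 0.05 with Cre and 0.03, -0.07 and -0.12 without. Clock belongs to the latter list, and on Hmox1f/f PdgfraCre 3 it was at its highest and Arntl at its lowest. The lists share 7 and 2 genes with the members and are given as a description.

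Of the other clock factors 10 of 14 listed symbols were found and 7 were tested, and 0 passed. At an unadjusted p under 0.05, 2 were lower with Cre, against 12.8% of all genes. Bhlhe41, which encodes the repressor DEC2, read 8.48, 8.85 and 9.11 with Cre and 9.11, 9.24 and 9.68 without, a difference of -0.53 ± 0.21 (SE, adjusted p = 0.303 by limma). Its groups met at a shared value of 9.11. Cipc, which encodes a CLOCK-interacting repressor, read 8.69, 8.70 and 8.61 with Cre and 8.91, 8.87 and 9.04 without, a difference of -0.27 ± 0.08 (SE, adjusted p = 0.266). The arrays of both genotypes were apart for Cipc. Nfil3, which encodes the D-box repressor E4BP4, read 7.57, 7.48 and 7.55 with Cre and 7.43, 7.35 and 7.29 without, also apart (0.17 ± 0.07, SE, adjusted p = 0.318). Rora, an activator of Arntl, differed by 0.29 ± 0.15 and Bhlhe40, which encodes DEC1, by -0.08 ± 0.21. Arntl2 (6.41 to 6.82 over 6 arrays), Ciart (6.13 to 6.77) and Rorb (4.46 to 5.09) lay below the filter and were not tested.

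Enzymes that modify or degrade PER and CRY proteins showed no call either, with 15 of 18 tested and 0 past the adjusted threshold. At an unadjusted p under 0.05, 1 was higher (3.03% of all genes) and 3 were lower (12.8%). Prkaa2, a catalytic subunit of AMPK, the kinase that marks CRY1 for breakdown, differed by 0.41 ± 0.13 (SE, adjusted p = 0.267 by limma). The phosphatase subunits Ppp1cc (-0.25 ± 0.09) and Ppp1ca (-0.24 ± 0.10) and the casein kinase 2 subunit Csnk2a2 (-0.21 ± 0.08) were lower. Of the other clock outputs 13 of 20 were tested, with 1 higher (3.03% of all genes) and 2 lower (12.8%) at the unadjusted mark. Alas1, the first enzyme of heme synthesis and a rhythmic gene in liver, differed by -0.34 ± 0.08 (SE, adjusted p = 0.266), Tspan4 by -0.32 ± 0.08 and Noct, which encodes the rhythmic enzyme nocturnin, by 0.21 ± 0.07. Lonrf3 differed by -0.24 ± 0.12. None of them passed the adjusted threshold.

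Per1 is also a target of glucocorticoids and of immediate early signals, so genes of both kinds were read beside it. None passed the adjusted threshold. Of 16 glucocorticoid receptor and target genes tested 9 had a higher and 7 a lower mean with Cre (median 0.03, against -0.03 and 42.6% higher over all genes), with 2 at an unadjusted p under 0.05, both higher (3.03% of all genes). They were Hsd11b1, which encodes the enzyme that regenerates active glucocorticoid (0.30 ± 0.10, SE, adjusted p = 0.273 by limma), and Sult1a1 (0.33 ± 0.13). Dusp1 (-0.29 ± 0.12) and Zbtb16 (0.61 ± 0.32) followed. Of 22 immediate early genes tested 17 had a lower mean, against 6327 of all 11024 genes, with a median of -0.16 against -0.03. At the unadjusted mark 3 were lower (12.8% of all genes) and 1 was higher (3.03%), and these counts alone were near the shares of all genes. The groups did not overlap in 7 that were lower (21.2% of all genes) and 1 that was higher (5.82%). Fos (-0.42 ± 0.11), Atf3 (-0.64 ± 0.23) and Egr2 (-0.46 ± 0.19) were lower and Nr4a2 (0.25 ± 0.08) was higher, all with an adjusted p between 0.266 and 0.311 by limma.

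The 5 tested genes whose profile over the 6 arrays was most like the mean of the members were Kat2b, Nae1, N4bp2l2, Cntln and Gpam (Pearson r from 0.993 to 0.996, as a description over 6 arrays). The 5 most opposed were Stard5, Ddah2, Snapc2, Cxcr4 and Cops9 (r from -0.996 to -0.989). They are the extremes among 10611 genes compared. On Hmox1f/f PdgfraCre 3 the first 5 were at their highest and the other 5 at their lowest. That follows from the choice, since the mean of the members stood out on that array, and is no separate result. Kat2b, a histone acetyltransferase, read 8.69 on Hmox1f/f PdgfraCre 3 and 8.21 to 8.39 on the other arrays, and the chemokine receptor Cxcr4 read 9.04 there and 9.42 to 9.72 elsewhere. The Gpam gene, which encodes an enzyme of triglyceride synthesis, read 10.82 there and 10.30 to 10.53 elsewhere.

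**Figure D4:**
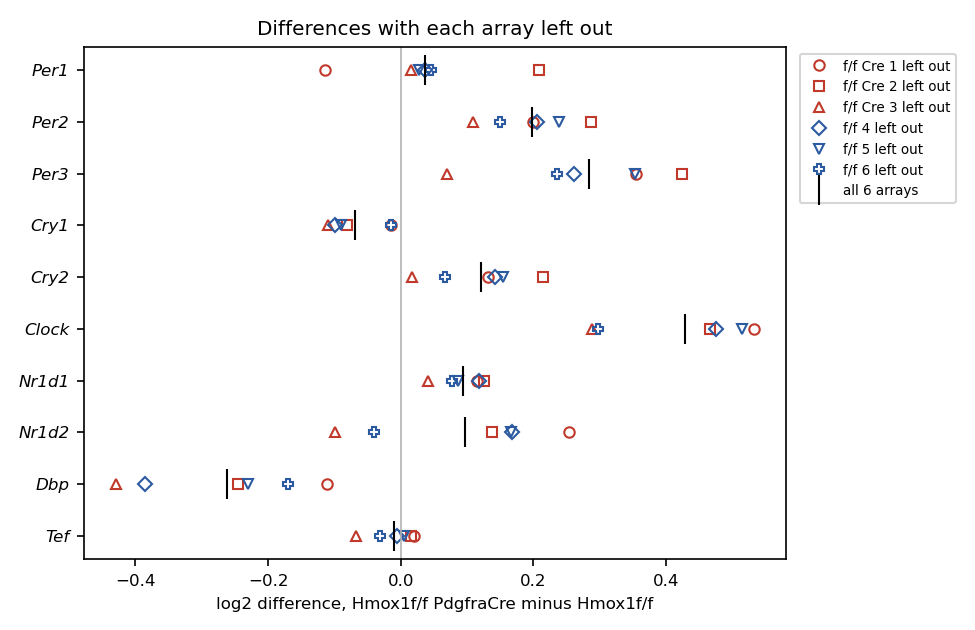
Log2 difference between Hmox1f/f PdgfraCre and Hmox1f/f (horizontal axis) of each clock member with all 6 arrays (black bar) and with 1 array left out (open symbols, red for arrays with Cre and blue for controls). Clock stays on the positive side (0.29 to 0.53) and Dbp on the negative side (-0.43 to -0.11), whereas Per1, Nr1d2 and Tef cross 0.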

How the data were processed

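RNA of 6 pools was measured on Affymetrix mouse gene arrays from 200 ng each. The authors deposited 1 linear intensity a probeset and array, in whole numbers, made with RMA in Affymetrix Expression Console 1.1 per the submitters' processing notes. RMA equalises the arrays at the level of single probes and compresses dim differences. The median deposited intensity still ran from 106 on Hmox1f/f 6 to 115 on Hmox1f/f 4. Log2 was taken here. Of 35556 probesets 21789 carried 1 gene symbol, 1621 several (not used) and 12146 were unnamed here. The probeset with the highest mean stood for each gene. A two-sided limma model (version 3.58.1, R 4.3.3) with genotype as its term was fitted by lmFit and eBayes to all 19938 genes, with Benjamini-Hochberg adjustment across the 11024 past the filter. The model was tested on simulated data. Groups came from the labels, which give no batch. The p-values measure the spread between these arrays. Members, lists and tests were chosen with earlier results of these data known. Named genes were the members, all other measured clock factors, up to 4 genes of smallest p per further list, the 5 most and least alike in profile, Hmox1 and Pdgfra. Thra, Sphk2, Uts2, Adipoq and Adgre1 were added for context after values were seen. Listed genes without a value were not analysed here. Figures were drawn with matplotlib 3.10.9. Alternatives were other filters, normalizations, variance models, a constant added before log2, the mean of probesets and arrays left out.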

Additional observations from a re-analysis of the deposited data

How the results depend on the processing

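No paired analysis was possible because the genotypes share no replicate numbers. Of 174 member values under other settings 162 kept their direction and their side of the adjusted threshold and 12 changed direction. The side was the same throughout, since 0 genes passed that threshold in limma under every setting. Other filters, other eBayes settings and the mean of probesets (each member has 1) leave a member's difference as it was. The 162 therefore include values that could not change direction, and their number is no measure of robustness. Tef turned to 0.0185 after a further quantile normalization and Nr1d2 to -0.13 with arrayWeights. That setting gave Hmox1f/f PdgfraCre 3 the lowest weight (0.32) and Hmox1f/f 6 the next lowest (0.58). The Clock difference was 0.24 ± 0.13 (SE) with it. With both Hmox1f/f PdgfraCre 1 and Hmox1f/f 6 left out Per1 was -0.11 and Cry1 0.0387. With Hmox1f/f PdgfraCre 3 and Hmox1f/f 6 both left out, chosen after seeing the data as was the filter before eBayes, Cry2 was -0.0382, Nr1d2 -0.24 and the median of the members -0.0081. With 1 array left out the difference ranged from -0.11 to 0.21 for Per1, from -0.10 to 0.25 for Nr1d2 and from -0.0672 to 0.0198 for Tef, and the median of the members from 0.02 to 0.17. The count of members at an unadjusted p under 0.05 was 0 with arrayWeights and with either pair left out, and 0 to 1 with 1 array left out. The 1 was Per2 without Hmox1f/f PdgfraCre 2 and Dbp without Hmox1f/f PdgfraCre 3, and Clock without Hmox1f/f PdgfraCre 1 or Hmox1f/f 5. The count of all genes at that mark was 1740, and 1117 under the full filter of the methods, which tested 3351 genes and left out Per1, Per2, Cry1, Cry2, Nr1d1 and Tef. It was 448 with the first pair left out, 1102 with the second pair left out, and 961 (without Hmox1f/f 6) to 2106 (without Hmox1f/f PdgfraCre 2) with 1 array left out. The cause of these shifts was not tested. Dim probesets such as Cry1 limit what RMA can show.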
